A study of Bos taurus with 24 samples.

Results

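Plasma of the late luteal phase (Day 16 of the oestrous cycle) was set against plasma of oestrus (Day 0) from the same 8 heifers. Every miRNA above 25 RPMM (the deposited level of a miRNA relative to all genome-mapped reads of its library) in at least 6 of the 8 libraries of both days was included, which gave 182 of the 870 miRNAs in the deposited table, 180 bovine entries and 2 entries of human miRNAs. The animals were Holstein-Friesian heifers of 15 to 17 months, not pregnant, and all had been synchronised with a progesterone insert, the GnRH analogue buserelin and the prostaglandin analogue cloprostenol. Day 0 was the first day on which oestrus was seen. Blood drawn into EDTA was spun in 2 steps to take away cells and then platelets and debris, and each plasma sample gave 1 small-RNA library sequenced with 36-base reads. All 16 libraries therefore came from 1 synchronised cycle of 8 animals, and each heifer served as her own reference.

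At oestrus progesterone is low and oestradiol from the preovulatory follicle is high, whereas late in the luteal phase the corpus luteum is still secreting progesterone, shortly before it regresses. Circulating miRNAs are short regulatory RNAs carried in plasma by proteins and vesicles. Most come from blood cells, endothelium and liver, and a tissue adds to the mixture only what it releases. A miRNA recognises its targets largely through its seed, the bases from position 2 to position 8, so that miRNAs with a shared seed are grouped as a family. In plasma, fewer source cells and less miRNA released per cell cannot be told apart.

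Total miRNA counts lay between 1299679 and 3818770 per library on Day 0 and between 1488279 and 4672302 on Day 16. The 182 miRNAs held 99.6% to 99.9% of these counts, and a level of 25 RPMM stood for 57.0 to 147 reads. Levels below are TMM-scaled CPM (counts scaled to a common library size), which sets the bulk of miRNAs equal between libraries. MiR-486, a red-cell miRNA, alone made up 6.07% to 45.1% of the counts of a library, so scalings that leave it in the total shift all other miRNAs. The median log2 difference of the 182 miRNAs was 0.00 with TMM, −0.12 on the RPMM scale and −0.19 with scaling to total counts.

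No miRNA passed the adjusted threshold of 0.1 for Day 16 against Day 0 (0 of 182, 0%, edgeR quasi-likelihood test with the heifer as a block, Benjamini-Hochberg adjustment, smallest adjusted p = 0.341). At an unadjusted p under 0.05, 24 of 182 (13.2%) differed, 10 higher on Day 16 (5.49%) and 14 lower (7.69%), where about 9.1 would be expected of independent miRNAs with no difference. DESeq2 called 3 miRNAs at the adjusted threshold, all lower on Day 16 (miR-199a-5p, miR-381 and miR-532, each with an adjusted p of 0.0830), and limma-voom with sample weights called 22. The division into higher and lower depended on the scaling, with 3 higher and 27 lower on the RPMM scale, 1 and 34 with total counts, and 4 and 16 with total counts less miR-486. With TMM and the 16 libraries of Days 0 and 16 alone, 14 were higher and 10 lower, of which 17 in all were among the original 24.

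Differences were small. The median absolute log2 difference was 0.17 (1.12-fold), against a median SE of 0.16, and 177 of 182 miRNAs differed by less than 1.5-fold. The median half-width of the 95% interval was 0.34 on the log2 scale (1.27-fold), and a difference smaller than its own half-width leaves 0 within the interval. Fitted differences lay above 0 for 92 miRNAs (50.5%) and below 0 for 90 (49.5%). TMM sets the bulk of miRNAs equal, so this near-even split is largely a property of the scaling. With total counts 55 of the 182 signs changed. For none of the 182 (0%) did the ranges of the 2 days fail to overlap.

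**Figure D1:**
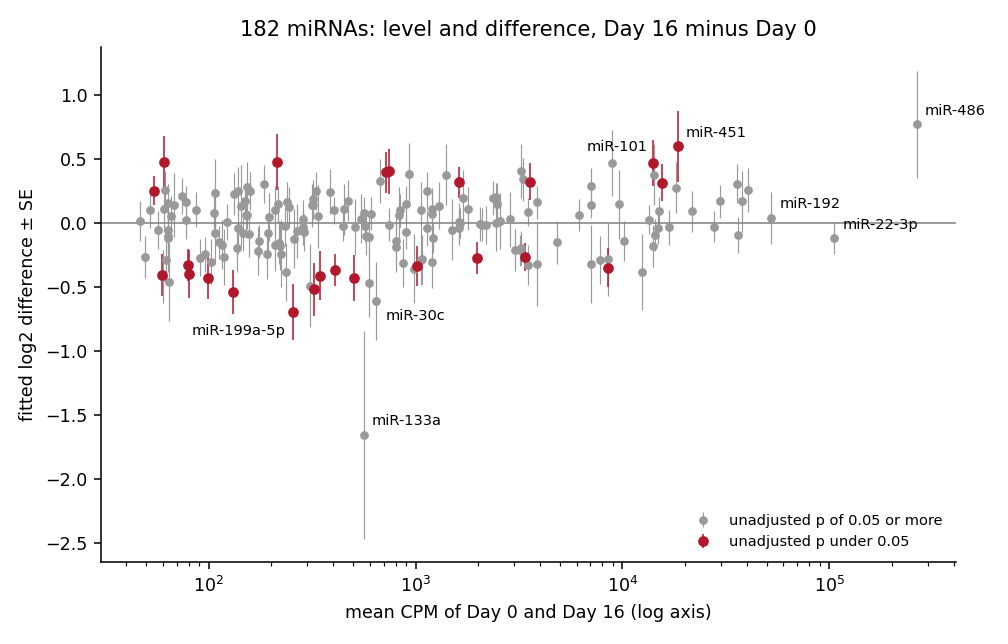
Fitted log2 difference of each of the 182 miRNAs (Day 16 minus Day 0, bars show the SE) against its mean CPM over both days on a log axis, with the 24 miRNAs of unadjusted p under 0.05 in red. MiR-133a, at −1.66, has the widest bar of all, and miR-486, at 0.77, stands alone at the abundant end.

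Canonical sequences from the supplementary list were matched to 121 of the 182 miRNAs. They held 87 different seeds, of which 16 were shared by 2 or more miRNAs. Of those with a matched sequence, 15 miRNAs past the unadjusted threshold are shown 5′ to 3′ with the seed in capitals, first those lower and then those higher on Day 16, together with miR-93, miR-20a and miR-17-5p, which did not pass but share the seed of miR-106b. MiR-381, miR-214, miR-451, miR-146b, miR-23b-3p, miR-139, miR-2285t and miR-1296 also passed and are named without a sequence. MiR-6529 passed as well and had a matched sequence that is not shown.
miR-199a-5p: cCCAGTGTtcagactacctgtt
miR-125b: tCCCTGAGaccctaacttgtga
miR-100: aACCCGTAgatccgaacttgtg
miR-99a-5p: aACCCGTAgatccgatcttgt
miR-99b: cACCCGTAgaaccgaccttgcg
miR-23a: aTCACATTgccagggatttcca
miR-27a-3p: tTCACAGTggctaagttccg
miR-532: cATGCCTTgagtgtaggaccgt
miR-154c: aGATATTGcacggttgatctct
miR-106b: tAAAGTGCtgacagtgcagat
miR-93: cAAAGTGCtgttcgtgcaggta
miR-20a: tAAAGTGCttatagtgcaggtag
miR-17-5p: cAAAGTGCttacagtgcaggtagt
miR-101: tACAGTACtgtgataactgaa
miR-144: tACAGTATagatgatgtactag
miR-126-3p: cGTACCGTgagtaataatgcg
miR-140: tACCACAGggtagaaccacgga
miR-1468: cTCCGTTTgcctgttttgctga
Among the 16 seeds shared within these 121 sequences, ACCCGTA of miR-100, miR-99a-5p and miR-99b was the one whose members all had an unadjusted p under 0.05, and seeds of the other 61 miRNAs were not compared. AAAGTGC of miR-106b, miR-93, miR-20a and miR-17-5p had a median log2 difference of 0.30, with all 4 members above 0. Because counting allowed 1 mismatch, near-identical miRNAs may share reads, and 9 pairs of the 121 sequences lay within 1 mismatch of each other over the shorter length, among them miR-100 with miR-99a-5p, miR-27a-3p with miR-27b, and miR-16a with miR-16b.

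MiR-199a-5p, a miRNA of mesenchymal cells, had the smallest p of all (chromosome 16, positions 36247840 to 36247861, minus strand, in the deposited coordinates, which name no genome build). Its gene copies lie within the dynamin genes DNM3 and DNM2, and counts of the mature miRNA do not tell them apart. Its CPM on Day 0 ranged from 148 in heifer 21 to 749 in heifer 18 with a median of 239, and on Day 16 from 159 to 274 with a median of 171. On Day 16, 7 heifers lay close together at 159 to 177 and heifer 16 stood apart at 274, whereas heifers 16 and 18 had been far above the rest at oestrus. The log2 difference was −0.69 (SE 0.22, unadjusted p = 0.00509), lower in 7 of 8 heifers. MiR-214 is encoded beside the DNM3 copy and made from the same transcript as that copy in mouse and man. It differed by −0.33 (SE 0.12), also lower in 7 of 8 heifers, with 57.0 to 124 CPM on Day 0 and 57.5 to 92.9 on Day 16. Of the 5 miRNAs of the group of miR-199 miRNAs and miR-214, 2 passed the unadjusted threshold, both lower (against 7.69% of all 182). The median of the group was −0.33 against 0.00 for all 182. MiR-199c (−0.33) and miR-199b (−0.09) also lay below 0. MiR-199a-3p was at 0.03 and turned to −0.06 on the RPMM scale and −0.16 with total counts. The deposited positions of miR-199c (102419028 to 102419047) and miR-199a-3p overlap on chromosome 11. On Day 16 their levels were close in every heifer but 20, as in heifer 18 (3536 and 3508 CPM). On Day 0 they differed most in heifers 16 (4475 and 1635) and 34 (3927 and 1289). Whether both counted the same reads was not tested, so they may not be separate members.

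MiR-381, miR-154c and 7 other tested miRNAs come from the DLK1-DIO3 imprinted domain, a large cluster transcribed from the maternal chromosome and active in embryonic, muscle, brain and endocrine tissue. The 9 lay on chromosome 21 between 65862179 and 66042804, and 8 of them were below 0, with 2 past the unadjusted threshold, both lower (against 7.69% of all 182), and a median of −0.27. Without heifer 21, 5 of the 9 passed and the median was −0.41. Leaving out any other heifer, 2 or 3 passed. The median then ran from −0.21 (without heifer 16, with 2 members above 0) to −0.30 (without heifer 20). MiR-381 had 88.1 to 298 CPM on Day 0 (median 152) and 82.7 to 161 on Day 16 (median 101). Heifer 16 had the highest value on both days, and heifers 20 and 21 were the only ones whose level was not lower on Day 16. Its log2 difference was −0.54 (SE 0.17, unadjusted p = 0.00519), and that of miR-154c was −0.43 (SE 0.16), lower in 7 of 8 heifers. MiR-380-3p (−0.30), miR-127 (−0.31) and miR-369-3p (−0.27) did not pass, and miR-665, the exception at 0.01, turned to −0.10 on the RPMM scale and −0.19 with total counts. Of the 60 miRNAs listed for this domain 54 were in the table, and the other 45 of those were under the limit in plasma.

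MiR-532, from a cluster within the chloride channel gene CLCN5 on the X chromosome, was at 320.1 to 583 CPM on Day 0 and 319 to 400.4 on Day 16. All Day 16 values were thus below the Day 0 median of 457, and heifer 18 moved from the highest value at oestrus to the lowest on Day 16. The log2 difference was −0.36 (SE 0.13, unadjusted p = 0.00896), lower in 7 of 8 heifers. MiR-660 of the same cluster had a log2 difference of −0.21, and the 6 other cluster members in the table were under the limit.

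**Figure D2:**
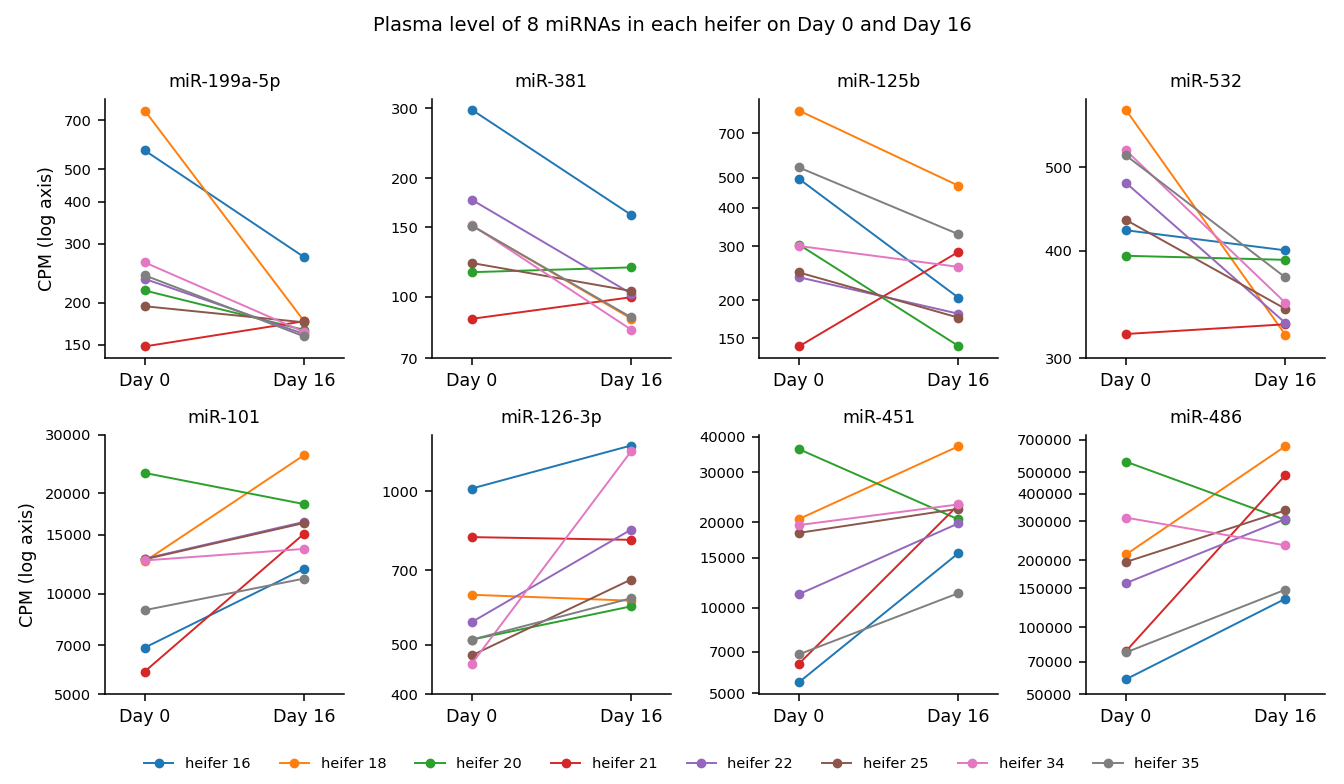
CPM on a log axis of 4 miRNAs of lower and 4 of higher mean level on Day 16, with 1 line per heifer from Day 0 to Day 16. For miR-199a-5p 7 of the 8 lines end between 159 and 177 CPM, and the line of heifer 21 (red) goes up in all 4 panels of the top row.

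The miR-99/100 and miR-125 group, whose genes sit in ancient clusters with let-7 and which are abundant in fibroblasts, smooth muscle and other mesenchymal cells, was below 0 in all 5 members under every scaling tried. Its median was −0.41, and 4 of the 5 passed the unadjusted threshold, all lower (against 7.69% of all 182). MiR-125b ranged from 141 to 829 CPM on Day 0 (median 302) and from 142 to 472 on Day 16 (median 230.4). Heifer 21 had the lowest level at oestrus and was the only heifer with a higher level on Day 16. The log2 difference was −0.52 (SE 0.21, unadjusted p = 0.0229), that of miR-100 was −0.43 (SE 0.18), of miR-99a-5p −0.41 (SE 0.19) and of miR-99b −0.33 (SE 0.16), while miR-125a was at −0.18 (SE 0.20). Leaving out any 1 heifer other than 21 or 34 left 1 or 2 of these past the unadjusted threshold instead of 4, although all 5 stayed below 0.

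The miR-23/27/24 clusters are expressed in endothelium and many other cells. Of their 5 members 3 passed the unadjusted threshold, all lower (against 7.69% of all 182), and the median of the 5 was −0.26. MiR-23a, which is used as a reference that red cells hardly affect, had 3152 to 4450 CPM on Day 0 and 2199 to 4207 on Day 16, a log2 difference of −0.26 (SE 0.11) and a lower level in 6 of 8 heifers. MiR-27a-3p from the same cluster on chromosome 7 differed by −0.35 (SE 0.15) and miR-23b-3p from the paralogous cluster on chromosome 8 by −0.27 (SE 0.13), whereas miR-24-3p (−0.10) and miR-27b (−0.03) lay near 0. Without heifer 18 or heifer 35 none of the 5 passed. MiR-139 (−0.40) and miR-2285t (−0.41), the latter a ruminant miRNA, completed the 14 lower miRNAs.

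The smooth-muscle miRNAs miR-143 and miR-145 and the striated-muscle miRNA miR-133a did not pass the unadjusted threshold, and their SEs were above the median of 0.16. MiR-143 ranged from 7269 to 59410 CPM on Day 0 and from 4854 to 21207 on Day 16, and heifer 16 held the highest value of both days. Its log2 difference was −0.38 (SE 0.30), and that of its cluster partner miR-145, at 29.1 to 237 CPM on Day 0 and 32.7 to 63.9 on Day 16, was −0.46 (SE 0.31). MiR-133a, made in skeletal and cardiac muscle, had the widest difference of the 182, −1.66 (SE 0.81, unadjusted p = 0.0553). It ranged from 98.5 to 2642 CPM on Day 0 (median 408) and from 36.8 to 1808 on Day 16 (median 161), and was lower in 7 of 8 heifers, heifer 25 being the exception. The other 6 striated-muscle miRNAs were under the limit.

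All 9 tested members of the erythrocyte list lay above 0, with a median of 0.38 and 2 past the unadjusted threshold (against 5.49% of all 182 higher). Without heifer 18, 21, 22, 25 or 35 none of the 9 passed, without heifer 20, 6 did, and the median ran from 0.22 (without heifer 18) to 0.57 (without heifer 20). The sign of some members depended on scaling, since with total counts 6 were above and 3 below 0, while the median was 0.22. MiR-451, the erythroid miRNA processed without Dicer, ranged from 5464 to 36174 CPM on Day 0 (median 14752) and from 11247 to 36986 on Day 16 (median 21392). Its log2 difference was 0.60 (SE 0.28, unadjusted p = 0.0432), higher in 7 of 8 heifers, and its cluster neighbour miR-144 differed by 0.48 (SE 0.22), higher in the same number. Heifer 20, which had the highest miR-451 of all heifers at oestrus, was the exception for miR-451. MiR-486, from the erythroid ankyrin gene ANK1, was the most abundant miRNA on both days, at 58302 to 556550 CPM on Day 0 (median 177442) and 134303 to 652994 on Day 16 (median 305559), with a log2 difference of 0.77 (95% interval −0.10 to 1.65, unadjusted p = 0.0809). MiR-16b (0.47), miR-16a (0.38) and miR-25 (0.28) did not pass.

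Both red-cell measures were also compared as single values per library. The paper reports that absorbance and the qPCR difference of miR-451 and miR-23a served to control for haemolysis. Ratios of reads are not on that qPCR scale. The log2 ratio of miR-451 to miR-23a, which is used as a measure of red-cell lysis, was 1.82 ± 1.05 on Day 0 and 2.77 ± 0.67 on Day 16 (SD, n = 8), and the difference of 0.94 ± 0.73, higher in 7 of 8 heifers, passed a two-sided exact permutation test that flips the sign of each heifer's difference (p = 0.0156, or 0.0312 after adjustment over both measures). In mean log2 CPM this difference was made up of 0.68 for miR-451 and −0.26 for miR-23a, and with miR-23b-3p, which also had a lower mean on Day 16, as denominator it was 0.95. The miR-486 share of counts was 19.8% ± 12.2 on Day 0 and 27.97% ± 10.4 on Day 16 (SD, n = 8), a difference of 8.14 ± 13.7 percentage points that did not pass the same exact test (p = 0.141). Without heifer 20 it was 11.4 points (exact p = 0.0312, not adjusted). With 8 heifers the smallest p that this test can give is 0.00781. The erythrocyte list summed to 11.9% to 53.8% of counts on Day 0 (median 28.1%) and 20.4% to 54.1% on Day 16 (median 37.3%). When miR-486 and miR-451 entered the fit as a covariate, the numbers past the unadjusted threshold were 6 higher and 11 lower, of which 8 in all were among the original 24. How far red-cell content set the other differences was not tested beyond this covariate.

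**Figure D3:**
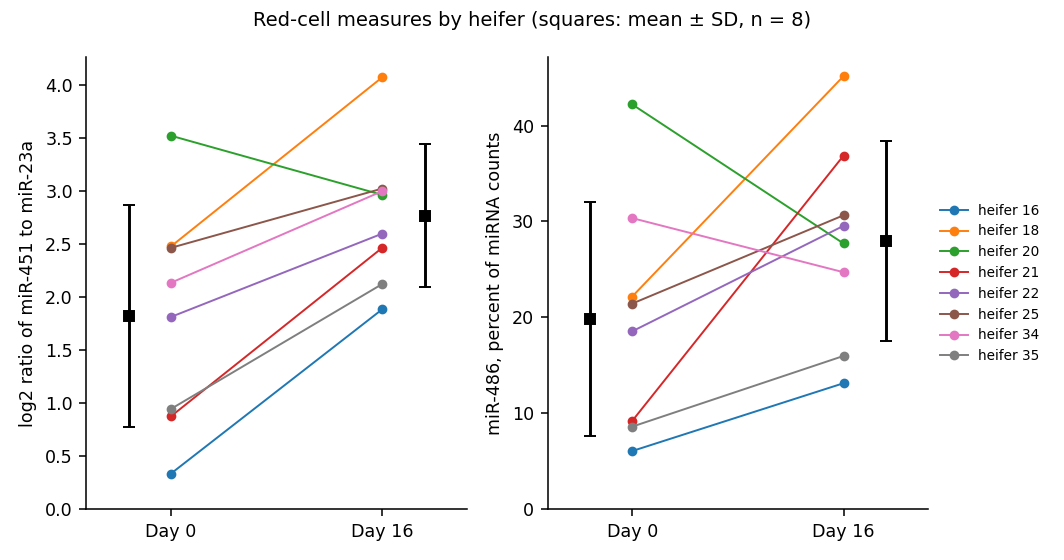
The log2 ratio of miR-451 to miR-23a (left) and the miR-486 share of miRNA counts in percent (right) for each heifer on Day 0 and Day 16, with squares for the mean ± SD of 8 heifers. The ratio climbs in every heifer but 20, and the share in every heifer but 20 and 34.

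The miR-17-92 family, whose members are polycistronic and common in proliferating and erythroid cells, lay above 0 in all 10 tested members with a median of 0.22, and in 8 on the RPMM scale, 6 with total counts and 7 with the red-cell covariate. The median was 0.11 with the covariate and also 0.11 without heifer 18. Past the unadjusted threshold was 1 of the 10 members (against 5.49% of all 182 higher). It was lost without heifer 16, 18, 21, 22, 25 or 35, while 4 passed without heifer 20. That member was miR-106b, from an intron of MCM7, with 359 to 1081 CPM on Day 0, 588 to 1232 on Day 16 and a log2 difference of 0.41 (SE 0.18), higher in 7 of 8 heifers. MiR-93 and miR-25 from the same intron had log2 differences of 0.34 and 0.28, and the other members of its seed family, miR-20a and miR-17-5p, of 0.25 and 0.19. MiR-25 and miR-92a (0.17) are members of the erythrocyte list as well.

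MiR-101, which targets the histone methyltransferase EZH2, had the smallest p among the miRNAs that were higher on Day 16. Its CPM was 5841 to 23023 on Day 0 (median 12540) and 11100 to 26024 on Day 16 (median 15707), with a log2 difference of 0.47 (SE 0.18, unadjusted p = 0.0165), higher in every heifer except 20. MiR-1468 was the 1 miRNA of 182 (0.549%) that was higher in 8 of 8 heifers, with 1063 to 1855 CPM on Day 0 and 1208 to 2311 on Day 16. Its log2 difference was 0.32 (SE 0.12), and the ranges of the 2 days overlapped widely. MiR-140, a cartilage-rich miRNA from an intron of WWP2, had 8293 to 17477 CPM on Day 0 and 13271 to 23907 on Day 16 and a log2 difference of 0.32 (SE 0.14).

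MiR-126-3p, the endothelial miRNA from an intron of EGFL7 that platelets also carry, was at 459 to 1012 CPM on Day 0 (median 533) and 594 to 1229 on Day 16 (median 737), and the log2 difference was 0.40 (SE 0.16, unadjusted p = 0.0230). Heifer 34 went from the lowest of the 8 values at oestrus to the second highest on Day 16. MiR-126-5p from the other arm of the hairpin differed by 0.29 (SE 0.14), which just missed the unadjusted threshold. MiR-126-3p was the single one of 13 platelet-list miRNAs past that threshold (against 5.49% of all 182 higher), and the 13 had a median of 0.02. MiR-146b and miR-146a, both induced by NF-kappaB in immune cells, had log2 differences of 0.48 (SE 0.20) and 0.31 (SE 0.15). MiR-146b rested on 35.5 to 72.6 CPM on Day 0 and 53.5 to 151 on Day 16, with heifer 18 highest. The 10 leukocyte miRNAs had a median of −0.01, and miR-155 (−0.02) and miR-142-3p (−0.03) lay near 0. MiR-6529 (0.33) and miR-1296 (0.25) completed the 10 higher miRNAs.

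**Figure D4:**
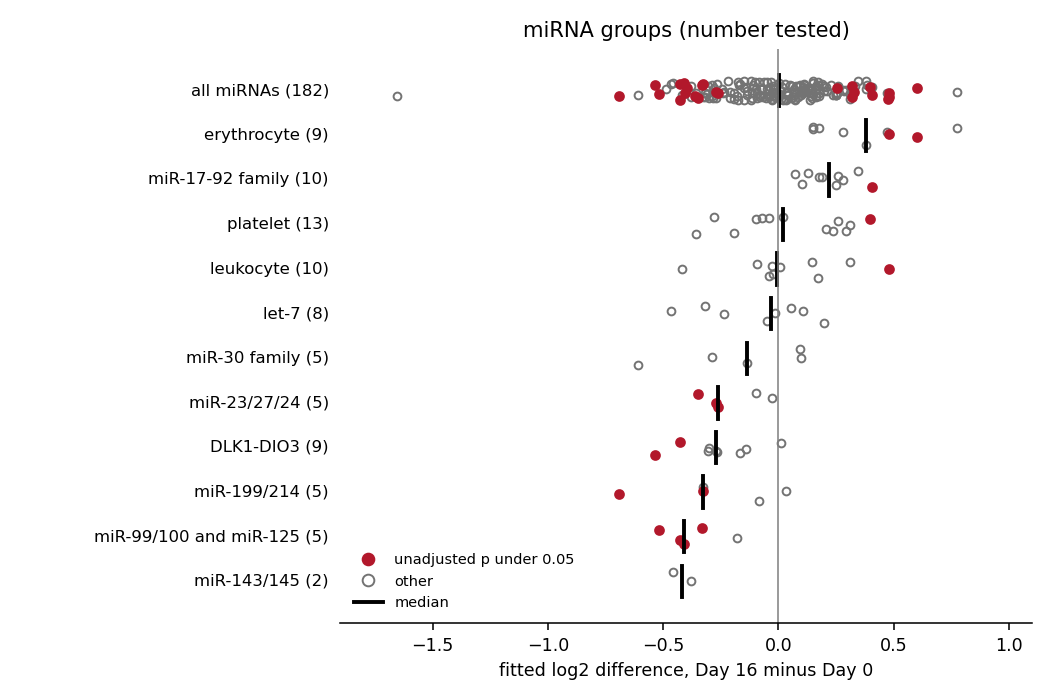
Fitted log2 difference (Day 16 minus Day 0) of every tested miRNA in 11 groups and in all 182, with the number tested in brackets, red points for unadjusted p under 0.05 and a black line for the median. The erythrocyte and miR-17-92 points lie right of 0 and the miR-99/100 and miR-125 points left of 0, at medians of 0.38, 0.22 and −0.41.

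Other groups held no miRNA past the unadjusted threshold. The 8 let-7 miRNAs, which restrain proliferation and mark differentiated cells, had a median of −0.03, with 3 above and 5 below 0 and let-7f, at 1160 to 7923 CPM on Day 0 and 1794 to 7940 on Day 16, at −0.32 (SE 0.33). Of the same 8, let-7d stood at −0.47 (SE 0.26) and let-7g at 0.20 (SE 0.14). The 5 miR-30 miRNAs had a median of −0.14, from −0.61 for miR-30c (SE 0.31) to 0.10 for miR-30e-5p (SE 0.11), and the 3 miR-29 miRNAs −0.05. The 5 epithelial miRNAs had a median of 0.11, but −0.06 without heifer 16 and 0.26 without heifer 35. Among them miR-205 was at −0.31 (SE 0.19) and miR-429 at 0.28 (SE 0.195). Among liver and gut miRNAs, miR-192 (0.04), miR-215 (0.38) and miR-375 of pancreatic islets and gut endocrine cells (0.41, SE 0.21) did not pass, and the median of the 4 tested was 0.21, but 0.07 without heifer 16, 0.38 without heifer 35 (where 2 passed) and 0.01 with total counts. Of 12 miRNAs in the table that are known from ovarian follicles or corpora lutea 3 were above the limit, and their median was −0.04, with miR-224, a granulosa-cell miRNA, at −0.24 (SE 0.14) and miR-378 at 0.12 (SE 0.17). The 2 HOX-cluster miRNAs, miR-10a and miR-10b, stood at 0.14 and −0.09.

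Of the miRNAs chosen for RT-qPCR, 12 were tested here and 5 passed the unadjusted threshold, all lower on Day 16 (against 7.69% of all 182), with a median of −0.36 over the 12. Without heifer 16 or heifer 20, 2 passed, and without heifer 16 the median was −0.20. The 5 were miR-199a-5p, miR-381, miR-125b, miR-99a-5p and miR-99b. In that assay miR-99b, miR-381 and miR-199a-5p lay under the reliable range. Part of that list was chosen on these libraries, so its count is not independent evidence of a direction.

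Of the 10 most abundant miRNAs none passed. MiR-22-3p, second in abundance, was lower in 7 of 8 heifers but by little, at 82595 to 146609 CPM on Day 0 and 89657 to 123201 on Day 16 (log2 difference −0.12, SE 0.13). MiR-423-5p differed by 0.31 (SE 0.15), higher in 7 of 8 heifers, and miR-191 by 0.26 (SE 0.17). Across all miRNAs, 18 of 182 (9.89%) were higher in at least 7 of 8 heifers and 12 of 182 (6.59%) were lower in at least 7.

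**Figure D5:**
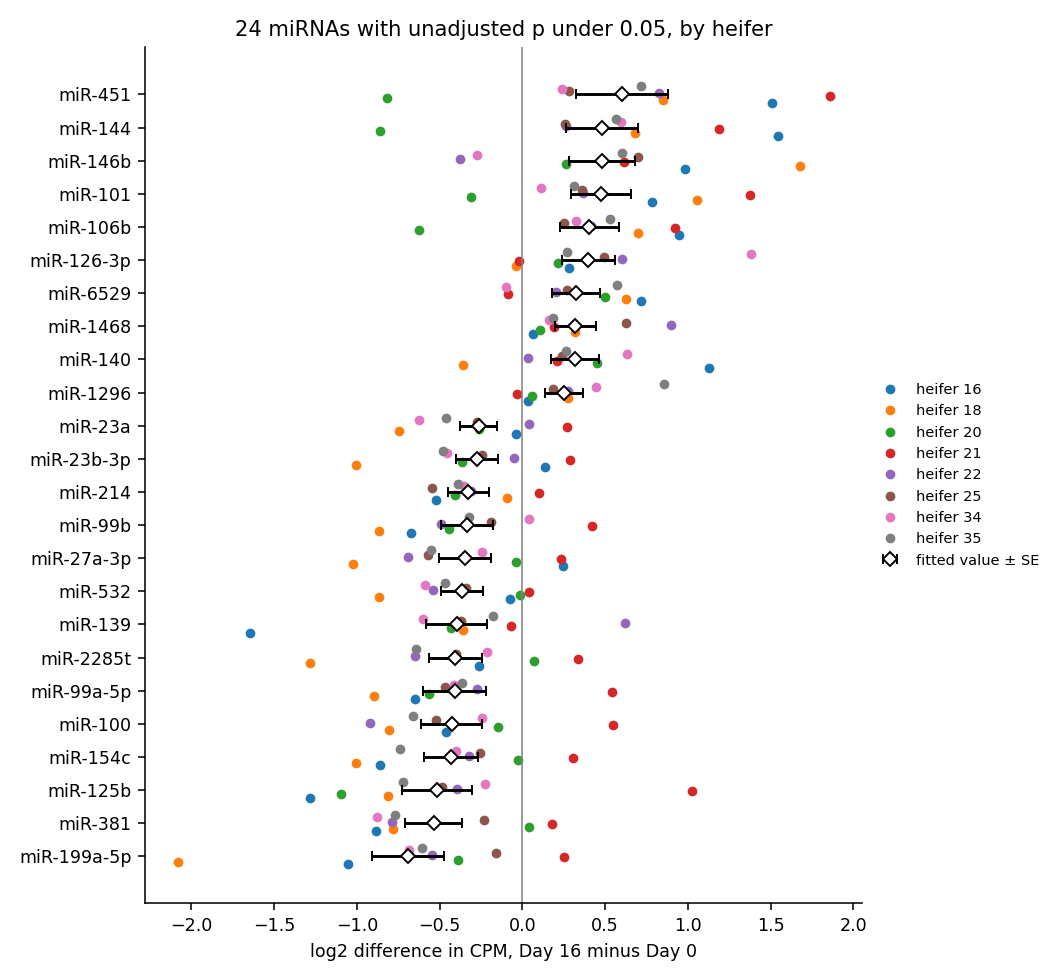
Log2 difference in CPM (Day 16 minus Day 0) of the 24 miRNAs with unadjusted p under 0.05, with 1 coloured point per heifer and a white diamond for the fitted value ± SE. Heifer 21 (red) lies on the other side of 0 from the diamond for 16 of the 24 miRNAs, and heifer 20 (green) for 6.

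The heifers did not take part alike. Over the 182 miRNAs, the log2 changes of heifers 16, 18, 22, 25, 34 and 35 had a Pearson correlation of 0.27 to 0.41 with the mean change of the other 7, and those of heifers 20 and 21 of −0.06 and −0.05 (across miRNAs, which are not independent and share their libraries). Heifer 21 went against the fitted direction for 16 of the 24 miRNAs and heifer 20 for 6, whereas heifers 25 and 35 went against none. Heifer 20 was the only one with a lower erythrocyte mean on Day 16 (−0.77) and heifer 21 the only one with a higher miR-99/100 and miR-125 mean (0.68). In the other of these 2 groups each went with the rest, heifer 20 at −0.60 for miR-99/100 and miR-125 and heifer 21 at 1.27 for the erythrocyte list. Without heifer 21, edgeR called 3 miRNAs at the adjusted threshold, miR-125b, miR-199a-5p and miR-381 (each adjusted p = 0.0792), and without heifer 20 the unadjusted numbers were 17 higher and 8 lower. Without heifer 18 they were 5 and 7, and without heifer 25, 2 and 14.

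The lowest mean levels over the 16 libraries among the included miRNAs were those of miR-33b (31.3 RPMM) and miR-432 (32.6 RPMM), each with an SE of 0.16 on the log2 scale. Just outside the limit of 25 RPMM, miR-136 was above the limit in 6 libraries of Day 0 and 1 of Day 16 (medians 33.5 and 17.1 RPMM) and miR-132 in 8 and 2 (28.1 and 22.8 RPMM). Another 8 miRNAs, among them let-7e and miR-122, reached the limit on Day 16 alone, with 4 or 5 libraries above it on Day 0.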

How the data were processed

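Small-RNA libraries of plasma from 8 heifers on Days 0 and 16 were compared, with the Day 8 libraries in the same fit (24 in all). The authors trimmed reads, assigned them to mature bovine and human miRBase miRNAs with sRNAbench, which runs Bowtie (version 0.12.9 in the submitters' processing notes), allowed 1 mismatch, and deposited a raw count per miRNA. The authors also deposited RPM values (called RPMM), which are counts scaled to the genome-mapped reads of the library. Of the columns, 0 were left unused.

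Counts of the 182 miRNAs were scaled by TMM and tested in edgeR 4.0.16 (R 4.3.3, glmQLFit and glmQLFTest), with heifer and day as terms and thresholds of 0.1 (adjusted) and 0.05 (unadjusted). The SE is the log2 difference divided by the root of the F value. Pairing is by animal: residual profiles of the same heifer on both days correlated at 0.145 to 0.564 (median 0.308), those of different heifers at a median of −0.0275. Ratios and shares were tested over all 256 sign changes within heifers. Simulated counts with known changes between Days 0 and 16 covered the same 182 miRNAs. Changes of 1.25-fold were recovered for 6 of 23 miRNAs, of 1.5-fold for 19 of 23 and of 2-fold for 21 of 22. Of 92 miRNAs without a change 4 were called. With only 92 of 182 unchanged, the adjusted threshold was easier to pass than where few miRNAs differ. The miRNAs were also drawn independently, so these rates do not give the recovery in the real libraries.

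Named miRNAs were the 10 smallest p in each direction, the 10 most abundant, the 2 smallest p of each list and those chosen for RT-qPCR, 3 of which that assay could not profile. A further 16 (miR-23b-3p, miR-139, miR-199a-3p, miR-199b, miR-199c, miR-16a, miR-16b, miR-25, miR-20a, miR-17-5p, miR-127, miR-369-3p, miR-380-3p, miR-665, miR-24-3p and miR-125a) and those near the limit were named after their values were seen, or complete a group. Members and lists were chosen with earlier results of these data known. Alternatives were DESeq2 1.42.0, limma 3.58.1 on log2(RPMM + 1) and log2(RPMM + 0.1), voom with sample weights, RLE and total-count scalings, other low-value limits, a robust fit, the 16 libraries alone, no heifer term, the summed red-cell miRNAs as covariate, and each heifer left out in turn. Host genes are names from the RefSeq annotation of the cow, whose coordinates were not used. Tables and figures used Python 3.11.15, pandas 2.3.3, numpy 2.4.6, scipy 1.17.1 and matplotlib 3.10.9.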

Additional observations from a re-analysis of the deposited data

Results flagged for a closer look

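In groups of 8 heifers, a highest or lowest CPM was marked when its gap to the next heifer took up more of the range (on the log2 scale) than Dixon's test allows at 95%. Of 148 groups (1 miRNA or red-cell measure on 1 day) 10 were marked, where chance marks about 1 in 20, and 6 of the 10 were values of heifer 16.

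Heifer 16 was highest for miR-143 on Day 0 (59410 CPM) and on Day 16 (21207 CPM), for miR-139 on Day 0 (241 CPM), and for miR-199a-5p (274 CPM) and miR-27b (40928 CPM) on Day 16, and lowest for miR-423-5p on Day 0 (21318 CPM). Its library of Day 0 had the smallest total count of the 16 and that of Day 16 the second smallest. Whether depth had a part in these values was not tested. Without heifer 16 the log2 difference of miR-199a-5p was −0.63, against −0.69 with all heifers, and that of miR-143 −0.18, against −0.38.

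The other marked values were single heifers. MiR-146b on Day 16 was highest in heifer 18 (151 CPM). MiR-215 on Day 0 was lowest in heifer 34 (899 CPM), miR-199c on Day 0 in heifer 21 (1828 CPM) and miR-125a on Day 16 in heifer 20 (378 CPM).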

How the results depend on the processing

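No miRNA was called at the adjusted threshold by edgeR with RLE scaling, total counts, total counts less miR-486, a robust fit, the 16 libraries alone, the covariate or the limit applied to all 3 days, nor by limma on RPMM values. DESeq2 called 3, limma-voom with sample weights 22, filterByExpr 1 and no low-value filter 3. Without each heifer in turn 0 to 3 were called. The unadjusted number of higher miRNAs was 6 with the covariate, 3 with log2(RPMM + 1) and with log2(RPMM + 0.1), 16 with voom weights, 1 with total counts, 4 with total counts less miR-486, and 2 to 17 leaving out a heifer. The number of lower miRNAs was 25 of 326 tested with filterByExpr (7.67%, against 7.69% of 182), 30 of 697 with no low-value filter (4.3%), 27 on both RPMM scales, 24 with voom weights, 34 with total counts, and 7 to 24 leaving out a heifer. The causes were not tested.

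Without the heifer block, which ignores the pairing, 5 were higher, 9 lower and 0 called at the adjusted threshold, the log2 ratio of miR-451 to miR-23a kept its value of 0.94 but lost its call (exact p = 0.0507), and 10 of 182 miRNAs changed sign, among the named ones miR-199a-3p (−0.031) and miR-665 (−0.010). The miR-486 share ranged from 5.35 to 11.4 points leaving out a heifer.

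None of the 24 miRNAs past the unadjusted threshold changed sign under any alternative. These 24 were chosen by their p in the same counts, which by itself favours a kept sign. Of all 182, 45 did with the covariate, 37 with log2(RPMM + 1), 36 with log2(RPMM + 0.1), 55 with total counts, 10 with total counts less miR-486, 27 with voom weights and 9 to 21 leaving out a heifer. Among the 72 miRNAs named by rule or to complete a group, those with the covariate were miR-486 (−0.013), miR-22-3p (0.030), miR-92a (−0.25), miR-27b (0.13), miR-29b (0.039), miR-155 (0.020), miR-142-3p (0.31), miR-199a-3p (−0.13) and miR-25 (−0.080). MiR-486 makes up most of the summed covariate, so its own value there was largely set by the fit and does not bear on its difference. The miRNAs among the 72 that changed sign under other alternatives follow. On both RPMM scales they were miR-192 (−0.048), miR-30d (−0.027), miR-378 (−0.0055 with a pseudocount of 1 and −0.0054 with 0.1), miR-199a-3p (−0.062) and miR-665 (−0.10). With total counts they were miR-192 (−0.17), miR-92a (−0.0084), miR-142-5p (−0.0059), miR-30d (−0.10), miR-10a (−0.047), miR-378 (−0.074), miR-199a-3p (−0.16) and miR-665 (−0.19), and with total counts less miR-486 miR-199a-3p (−0.011) and miR-665 (−0.027). With voom weights they were miR-142-3p (0.17), miR-199a-3p (−0.14) and miR-665 (−0.0060). Leaving out a heifer, miR-192 ranged from −0.028 to 0.22, miR-92a from −0.015 to 0.33, miR-27b from −0.072 to 0.023, miR-30d from −0.036 to 0.19, miR-378 from −0.0072 to 0.25, miR-29b from −0.14 to 0.038, miR-155 from −0.13 to 0.058, miR-142-3p from −0.12 to 0.13, miR-199a-3p from −0.097 to 0.18, miR-199b from −0.21 to 0.045, miR-665 from −0.066 to 0.10 and miR-24-3p from −0.15 to 0.018.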

Other observations

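MiR-133b and miR-208b, muscle miRNAs under the limit of 25 RPMM, had lower levels on Day 16. The miRNAs under the limit were looked at after the data were seen, in a fit with no low-value filter over 697 miRNAs, in which edgeR called 3 (0.43%) at the adjusted threshold of 0.1 and 45 (6.46%) had an unadjusted p under 0.05. MiR-133b, a miRNA of skeletal and cardiac muscle, ranged from 2.83 to 12.5 RPMM on Day 0 (median 4.82) and from 0.60 to 2.09 on Day 16 (median 1.15). It fell in 8 of 8 heifers, and it was the 1 miRNA of 697 (0.143%) whose ranges on the 2 days did not overlap. The log2 difference was −2.17 (SE 0.42, edgeR adjusted p = 0.00421), on 7 to 47 counts per library on Day 0 and 2 to 9 on Day 16. The call held with DESeq2 (adjusted p = 0.0176), filterByExpr (0.0758), total counts (3.08e-05) and no heifer block (0.0724). It also held leaving out each heifer in turn (edgeR adjusted p from 2.94e-05 to 0.0695). MiR-133b was not among the 121 sequences compared for near-identical pairs. Whether reads of the more abundant miR-133a (median 258 RPMM on Day 0) were counted under miR-133b was not tested.

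MiR-208b, from a cardiac and slow-muscle myosin gene, ranged from 10.5 to 81.9 RPMM on Day 0 and from 5.71 to 16.9 on Day 16, also lower in 8 of 8 heifers (log2 difference −1.21, SE 0.29, edgeR adjusted p = 0.0546). Its call was lost with DESeq2 (adjusted p = 0.162), filterByExpr (0.223), no heifer block (0.202) and without heifers 16 (0.158), 18 (0.118) or 22 (0.364). MiR-499, from another myosin gene, differed by −0.56 (SE 0.24, edgeR adjusted p = 0.578), lower in 6 of 8 heifers. MiR-1, miR-206 and miR-208a were at 0 to 3.75 RPMM on Day 0. In the same fit miR-1 differed by −1.08 (SE 0.79). MiR-206 (0.64) and miR-208a (0.81) lay above 0, each by less than its SE, on at most 4 and 3 counts per library. So few counts do not settle their direction, and lower levels were not seen in every muscle miRNA. On Day 8 miR-133b had a median of 1.29 RPMM and a highest value of 10.03, within the Day 0 range.

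MiR-136, of the DLK1-DIO3 domain, was the third called, at 22.9 to 60.4 RPMM on Day 0 and 12.2 to 31.2 on Day 16, lower in 8 of 8 heifers (log2 difference −0.80, SE 0.20, edgeR adjusted p = 0.0767). Its call was lost with DESeq2 (adjusted p = 0.141), filterByExpr (0.165) and no heifer block (0.152), and without heifers 16 (0.171), 18 (0.674), 22 (0.364) or 35 (0.322).

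Heifers also differed from each other more at oestrus. The SD of log2 CPM over the 8 heifers was larger on Day 0 than on Day 16 for 138 of 182 miRNAs, with medians of 0.44 and 0.32, and 0.37 on Day 8. The median distance of a library from the mean of the other 7 of its day was 0.18 to 0.50 on the log2 scale on Day 0, highest in heifers 21, 18 and 16, and 0.17 to 0.33 on Day 16. This was not tested.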
